A study of Oryza sativa with 12 samples.

Results

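The rice genes described here encode 7 basic leucine zipper (bZIP) transcription factors of the class that answers to abscisic acid. They were taken by gene identifier from the 37849 nuclear loci of the deposited tables: BZIP23, OsABI5-1, BZIP46, OsbZIP72, TRAB1, BZIP12 and OsbZIP62. Polysome-bound mRNA, the mRNA held on ribosomes, was sequenced from leaves of 2 cultivars of rice (Oryza sativa), APO, which the series title calls tolerant of drought, and IR64, which it calls susceptible. Plants of each cultivar were controls or were under 50% drought, which gave 4 groups of 3 libraries: APO control, APO drought, IR64 control and IR64 drought. The labels give no age, sampling time or duration of drought, nor whether libraries of 1 group derive from different plants, so the p-values measure only the spread between these libraries, which may be technical. Total mRNA was not analysed here, and in whole leaf a change in the number of cells of a type cannot be told apart from a change in mRNA per cell.

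Abscisic acid is the hormone that accumulates in plants short of water. In rice as in other plants its receptors, once bound to the hormone, hold back clade A protein phosphatases 2C. This releases SnRK2 kinases, named SAPK in rice, which phosphorylate bZIP factors of this class. The activated factors bind abscisic acid response elements in promoters, among them those of the RAB16 dehydrin genes and other late embryogenesis abundant (LEA) genes, whose proteins protect drying cells. BZIP23 and BZIP46 are known as positive regulators of abscisic acid signalling and drought tolerance in rice, TRAB1 as the partner of the seed regulator VP1 and a substrate of SAPK kinases, and BZIP12 (also called OsABF1) and OsbZIP72 as further activators of abscisic acid responses. OsABI5-1 is the rice factor named after the Arabidopsis regulator ABI5, which is best known from seeds.

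Levels are given as nuclear-scaled TPM (nTPM), which is the deposited TPM, a length-corrected abundance, rescaled so that the nuclear loci of a library sum to 1000000. Ribosomal and organelle RNA took very different parts of the libraries, and the nuclear loci held from 12.26 to 83.35% of TPM in 10 libraries. They held 5.04% in APO control 3. The library labelled APO drought 1 had 1.21%. Of 17 loci that marked APO in the other libraries, 0 lay above 1 nTPM in the library labelled APO drought 1, while 12 of 17 IR64-marking loci did. In APO control 3 those counts were 17 of 17 and 10 of 17. The tests below therefore use the other 10 libraries (2 in each APO group, 3 in each IR64 group), and values for the 2 libraries left out stand beside them. IR64 control 1 and 2 also stood apart from IR64 control 3 in the clock gene CCA1, at 636 and 953 nTPM against 1.91. CCA1 was at 1.63 to 82.6 in the 9 remaining libraries. The locus named LHY (Os04g0583900), read beside CCA1, was at 3.09 and 1.49 in IR64 control 1 and 2 against 4.88 in control 3. Read counts were not used here, and depth is known only as coverage divided by FPKM, lowest in IR64 drought 3 (0.61) and highest in IR64 control 2 (7.34). All 5 leaf markers measured (photosynthesis genes) were above 0 in every library, with summed levels of 2206 to 78196 nTPM. Seed storage markers summed to 0 to 9.97.

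BZIP12 rose under drought in both cultivars and BZIP23 rose in APO, while the other members did not pass the test in either cultivar. Of the 7 genes, 6 reached a mean of 1 nTPM and were tested, and OsABI5-1 was not. In APO 2 of the 6 rose and 0 fell, against 6.8% of all 22812 loci tested that rose and 7.6% that fell. In IR64 1 of the 6 rose and 0 fell, against 1.12 and 0.307% of loci. With all 12 libraries 1 member (BZIP23) passed in APO, where 3.03% of 26192 loci passed in either direction, and 0 passed in IR64, where 0.00764% did. Over the deposited TPM of the 10 libraries 0 members passed, with the median of all loci at -0.75 in APO and -0.93 in IR64; BZIP12 was then at 1.9 and 1.19 and BZIP23 at 1.32 and -0.31. The median log2 difference of the 6 genes was 1.08 in APO, against -0.24 over all loci, and 0.38 in IR64, against 0.16. The leaf markers summed to 13372 and 18994 nTPM in APO control 1 and 2 and to 3553 and 2206 in APO drought 2 and 3: RbcS3, RbcS5 and CAB2R were lower in drought, CAB1R overlapped, and OsRcaII was higher (2025 and 853 against 456 and 780). In IR64 drought they summed to 6392 to 15332, which overlapped the 14153 of IR64 control 3. CCA1 also lay higher in APO drought 2 and 3 (82.6 and 55.5 nTPM) than in APO control 1 and 2 (3.44 and 1.63). LHY was at 158 and 187 against 9.59 and 4.77 in the same libraries. It was at 50.4 in APO control 3 and listed at 0 for the library labelled APO drought 1. In IR64 LHY was at 13.8, 16.0 and 40.6 in drought against 3.09, 1.49 and 4.88 in control. The part of the leaf markers, CCA1 and LHY in the results was not tested.

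BZIP12 (Os01g0867300, chromosome 1, 37556707 to 37560104, minus strand, coordinates of the deposited tables, whose genome build is not given in the sources used here) showed the largest drought difference of the members tested in both cultivars. In APO control it stood at 17.7 and 20.1 nTPM in libraries 1 and 2, and in APO drought at 121 and 120 in libraries 2 and 3. The value was 60.3 in APO control 3 and 108 for the library labelled APO drought 1, at coverages of 2.69 and 1.42 reads per base. With these 2 grouped by label, despite the marker counts given above, all APO drought libraries lay above all APO controls. That was so at 4.69% of loci (25.7% over the 10 libraries). In log2 terms BZIP12 rose in APO by 2.61 ± 0.50 (SE, n = 2 and 2; adjusted p = 0.0069, limma), a fold of 6.1 with a 95% interval of 2.84 to 13.08. With all 12 libraries the difference was 2.02 ± 0.57 and no longer passed (adjusted p = 0.0766), nor did it without APO control 1 (2.52, adjusted p = 0.0625) or without APO drought 2 (2.6, adjusted p = 0.0513).

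In IR64 BZIP12 went from 13.1, 7.89 and 24.3 nTPM in control 1, 2 and 3 to 120, 70.9 and 112 in drought 1, 2 and 3. Every drought library was above every control, as at 11.8% of loci. The log2 difference was 2.76 ± 0.41 (SE, n = 3 and 3; adjusted p = 0.0136, limma), a fold of 6.78 with an interval of 3.64 to 12.63. It had the same size with all 12 libraries, where the larger shared error gave an adjusted p of 0.127. It was 2.67 without IR64 drought 3 (adjusted p = 0.0559) and 1.98 when IR64 control 3 alone stood for its group (adjusted p = 0.132). The rise of BZIP12 in APO and in IR64 differed by -0.15 ± 0.64 log2 units (adjusted p = 0.909), with a 95% interval of -1.57 to 1.27.

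**Figure D1:**
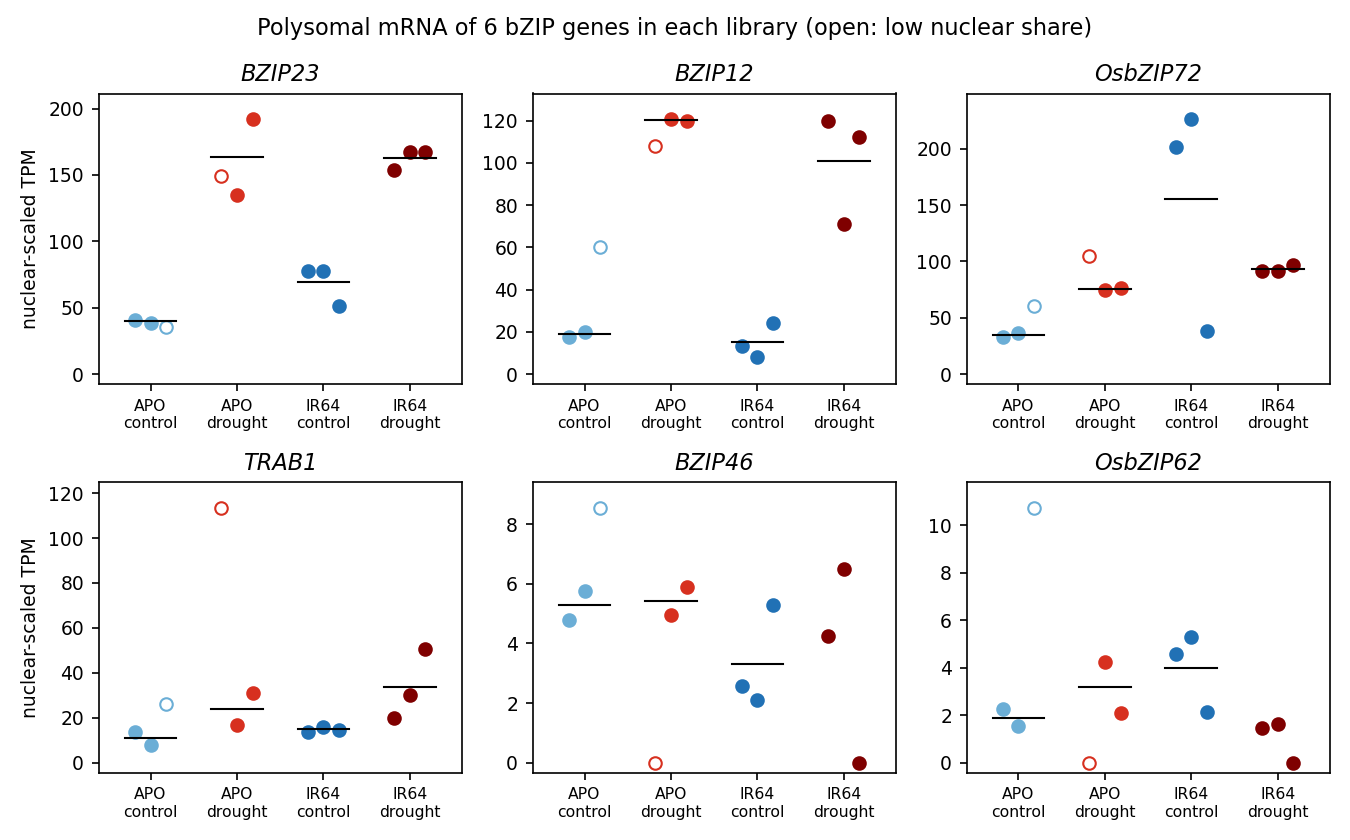
Nuclear-scaled TPM (nTPM, linear axis) of the 6 bZIP genes tested, in each of the 12 libraries by group. Filled points are the 10 libraries of the tests, open points the library labelled APO drought 1 and APO control 3, and black lines the means of the filled points, drawn where none is at 0. BZIP12 and BZIP23 lie higher in every drought library than in any control labelled with the same cultivar, as did 2.01% of loci. OsbZIP72 is high in IR64 control 1 and 2.

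BZIP23 (Os02g0766700, chromosome 2, 32276662 to 32281580, minus strand) was the most abundant member in 3 of the 4 groups. The 3 APO controls held 40.8, 38.6 and 35.2 nTPM, while APO drought 2 and 3 held 135 and 192. The library labelled APO drought 1 held 149, at a coverage of 1.97 reads per base. The 3 controls lay within 6 nTPM of each other and far below every library labelled APO drought. By label, 4.69% of loci had all APO drought libraries above all APO controls (25.7% over the 10 libraries). The log2 rise of BZIP23 in APO was 1.99 ± 0.36 (SE, n = 2 and 2; adjusted p = 0.00509, limma), a fold of 3.98 with an interval of 2.3 to 6.9, and 2.01 ± 0.41 with all 12 libraries (adjusted p = 0.0179). It passed in each of the 10 fits that left out 1 library.

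In IR64 BZIP23 was at 78.0, 78.0 and 51.6 nTPM in control and at 153, 167 and 168 in drought. Every drought library was above every control here too, as at 11.8% of loci. The difference of 1.25 ± 0.29 log2 units did not pass (SE, n = 3 and 3, adjusted p = 0.07, limma, interval 0.60 to 1.89). Without IR64 control 3 it passed at 1.05 (adjusted p = 0.0158), in a fit in which 17.1% of all loci passed in IR64, against 1.42% with that library. The drought levels of the cultivars were close, at 163 ± 40.5 in APO (SD, n = 2) and 163 ± 8.07 in IR64 (SD, n = 3), and differed by -0.01 ± 0.33 log2 units (interval -0.74 to 0.71). Control levels were 39.7 ± 1.63 (SD, n = 2) and 69.2 ± 15.2 (SD, n = 3), a difference of -0.76 ± 0.33 that did not pass (adjusted p = 0.455). The drought response of BZIP23 differed between cultivars by 0.75 ± 0.46 (interval -0.28 to 1.77), which did not pass either (adjusted p = 0.34).

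TRAB1 (Os08g0472000, chromosome 8, 23234477 to 23240624, plus strand) lay higher in drought in the 10 libraries but passed no test. In APO control 1 and 2 it was at 13.7 and 7.95 nTPM, and in APO drought 2 and 3 at 16.7 and 31.1. IR64 control 1, 2 and 3 held 13.6, 15.9 and 14.7, and IR64 drought 1, 2 and 3 held 19.6, 30.3 and 50.6. The differences were 1.05 ± 0.54 in APO (interval -0.15 to 2.25; adjusted p = 0.217, limma) and 1.03 ± 0.44 in IR64 (interval 0.05 to 2.01; adjusted p = 0.249). APO control 3, at 26.0, lay above APO drought 2, and the library labelled APO drought 1 held 114, the highest TRAB1 value of the series, at a coverage of 1.5 reads per base. BZIP12, BZIP23 and TRAB1 each had every drought library above every control in both cultivars over 10 libraries, as had 5.88% of loci tested. Over 12 libraries grouped by label BZIP12 and BZIP23 did, as had 2.01%.

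OsbZIP72 (Os09g0456200, chromosome 9, 17190097 to 17194010, plus strand) differed from these genes in its controls. APO control 1 and 2 held 33.0 and 36.2 nTPM and APO drought 2 and 3 held 74.4 and 76.3, with 60.6 in APO control 3 and 105 for the library labelled APO drought 1. IR64 control 1 and 2 held 201 and 226 while IR64 control 3 held 38.3, and IR64 drought 1, 2 and 3 held 91.7, 91.4 and 97.1. The IR64 drought libraries thus lay within 6 nTPM of each other, below 2 of their controls and above the third. Libraries labelled APO drought lay above all those labelled APO control, as at 4.69% of loci over 12 libraries and 25.7% over 10.

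The log2 difference of OsbZIP72 was 1.1 ± 0.69 in APO (SE, n = 2 and 2; interval -0.41 to 2.62; adjusted p = 0.304, limma) and -0.37 ± 0.56 in IR64 (SE, n = 3 and 3; interval -1.61 to 0.87; adjusted p = 0.767). The SE of the APO difference came from a spread pooled over all 4 groups, the IR64 controls included. Within APO the libraries of the tests had SDs of 2.27 (control) and 1.34 nTPM (drought). The direction of OsbZIP72 in IR64 depended on the control libraries. Without IR64 control 3 OsbZIP72 fell in IR64 by 1.18 (adjusted p = 0.00615), rose in APO by 1.1 (adjusted p = 0.011), and the responses of the cultivars differed by 2.29 (adjusted p = 0.00124). Calls were gained across the genome in that fit: 17.1% of loci passed in IR64, 20.9% in APO and 20.2% for the cultivar difference, against 1.42, 14.4 and 5.19% with the library. With IR64 control 3 alone as its group the IR64 difference was 1.26 and did not pass (adjusted p = 0.228), close to the 1.1 of APO in the same fit (adjusted p = 0.0335), and the responses differed by -0.16. CCA1, given above, was high in the same 2 IR64 controls as OsbZIP72, while LHY was not (3.09 and 1.49 nTPM against 4.88). The part of either gene in the result was not tested. The 5 leaf markers summed to 63060 and 78196 nTPM in these 2 controls against 14153 in IR64 control 3, through OsRcaII (42486 and 56335 against 278), CAB1R (9772 and 9218 against 1946) and, less, RbcS3, while CAB2R and RbcS5 were lower there than in control 3. The 5 root markers summed to 74.9 and 63.8 against 14.3, mostly LSI1 (67.7 and 56.8 against 8.57). Of the 2 guard cell markers SLAC1 stood at 47.8 and 31.4 against 10.2, and OsMYB60 was at 0.242 in IR64 control 1 and listed at 0 in the other IR64 controls. The part of these markers was not tested either.

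**Figure D2:**
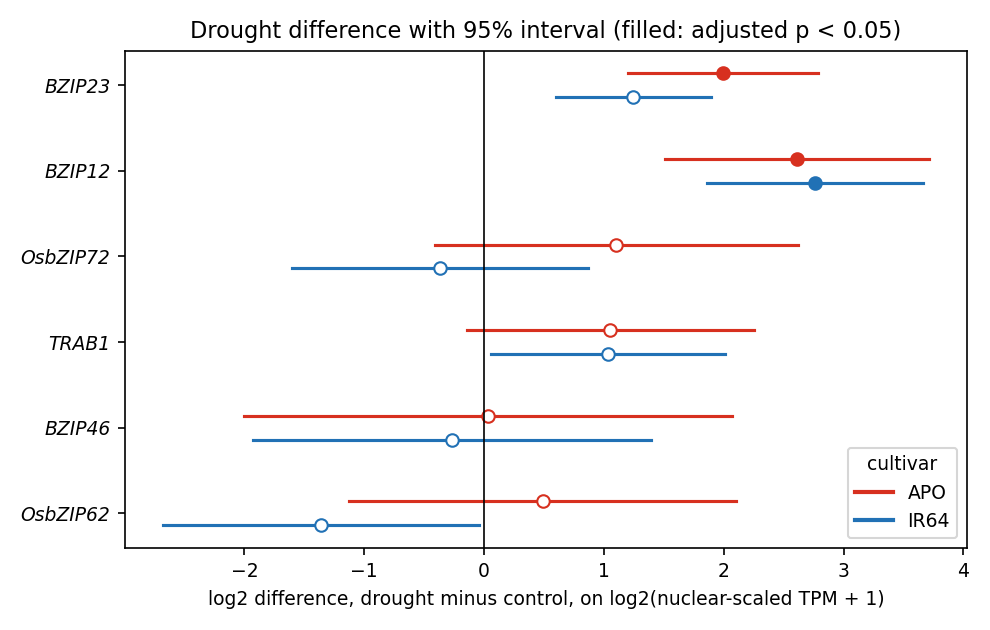
Log2 difference between drought and control, on log2(nTPM + 1), of the 6 genes tested in APO (red) and IR64 (blue), with 95% intervals from the fit of 10 libraries. Filled points passed at an adjusted p under 0.05: BZIP23 and BZIP12 in APO and BZIP12 in IR64.

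BZIP46 and OsbZIP62 were low in leaf, and OsABI5-1 was almost absent from the tables. BZIP46 (Os06g0211200, chromosome 6, 5677157 to 5682033, plus strand) held 4.80, 5.76 and 8.57 nTPM in APO control 1, 2 and 3, while APO drought 2 and 3 held 4.95 and 5.89. In IR64 it held 2.57, 2.1 and 5.28 in control 1, 2 and 3 and 4.26 and 6.49 in drought 1 and 2, and was listed at 0 for the library labelled APO drought 1 and for IR64 drought 3. Drought and control overlapped in both cultivars, and the differences were 0.03 ± 0.92 in APO and -0.27 ± 0.75 in IR64 (adjusted p = 0.988 and 0.887, limma). Their intervals, -2.0 to 2.07 and -1.93 to 1.39, are wide.

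OsbZIP62 (Os07g0686100, chromosome 7, 29144895 to 29147037, plus strand), a further bZIP factor linked to drought and oxidative stress tolerance in rice, held 2.26 and 1.53 nTPM in APO control 1 and 2, against 4.24 and 2.1 in APO drought 2 and 3. It was at 4.58, 5.28 and 2.12 in IR64 control 1, 2 and 3 and at 1.45 and 1.64 in IR64 drought 1 and 2, and was listed at 0 for the library labelled APO drought 1 and for IR64 drought 3. APO control 3 held 10.8. Every IR64 drought library lay below every IR64 control, as did 8.22% of loci tested, but the difference of -1.36 ± 0.60 did not pass (interval -2.68 to -0.04; adjusted p = 0.258, limma). Coverage behind these values was 0.172 and 0.924 reads per base in IR64 drought 1 and 2, against 5.12 to 18.6 in the controls.

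OsABI5-1 (Os01g0859300, chromosome 1, 37174575 to 37176344, plus strand) was listed at 0 in 10 of the 12 libraries. It stood at 0.284 nTPM in APO drought 3 and at 5.08 in APO control 3, at coverages of 0.525 and 0.227 reads per base. The 5 root markers summed to 96.2 nTPM in APO control 3 and to 0 to 74.9 in the other libraries, and all 5 were above 0 there, in APO drought 3 and in IR64 control 3. Of the 5 seed markers 2 were above 0 in APO control 3 and in IR64 control 3, and at most 1 elsewhere. The root markers summed to 14.3 nTPM in IR64 control 3. The seed markers summed to 9.97 in APO control 3, 4.49 in APO drought 2, 0.39 in APO drought 3 and 0.08 in IR64 control 3. The part of either list in the values of OsABI5-1 was not tested.

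TPM is scaled for length, so the levels of the genes can be ordered within a group. In APO control the order over 10 libraries was BZIP23 (39.7 ± 1.63), OsbZIP72 (34.6 ± 2.27), BZIP12 (18.9 ± 1.68), TRAB1 (10.8 ± 4.09), BZIP46 and OsbZIP62 (means ± SD in nTPM, n = 2). Neighbours in that order did not overlap in those 2 libraries. In APO drought BZIP12, at 120 ± 0.635 (SD, n = 2), had moved above OsbZIP72, at 75.4 ± 1.34, and below BZIP23. In IR64 control OsbZIP72 (155 ± 102) stood above BZIP23 (69.2 ± 15.2), but their ranges overlapped. BZIP12 (15.1 ± 8.36, SD, n = 3) and TRAB1 (14.7 ± 1.16) overlapped as well. In IR64 drought the order was that of APO drought, with BZIP23 at 163 ± 8.07, BZIP12 at 101 ± 26.3 and OsbZIP72 at 93.4 ± 3.21, of which BZIP12 and OsbZIP72 overlapped.

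Summed over the 7 genes, the level was 112 and 110 nTPM in APO control 1 and 2, against 356 and 428 in APO drought 2 and 3. It was 313, 336 and 136 in IR64 control 1, 2 and 3 and 390, 368 and 428 in IR64 drought. The 5 drought libraries of the tests thus held similar sums. The controls ranged more widely, IR64 control 3 being close to APO control 1 and 2. The sum was 206 in APO control 3 and 476 for the library labelled APO drought 1.

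**Figure D3:**
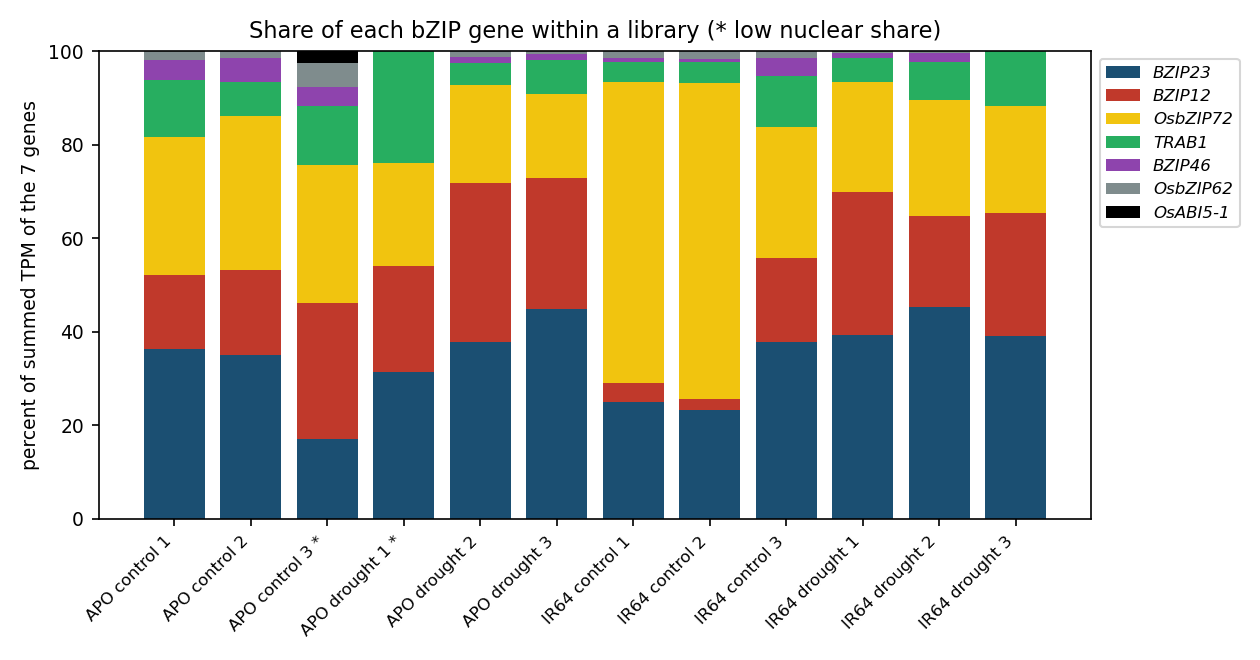
Share of each of the 7 genes in their summed TPM, in percent, in each of the 12 libraries; bars are stacked to 100. Asterisks mark the 2 libraries with a low nuclear share. BZIP12 holds 19.3 to 33.9% in the 5 other drought libraries and 2.4 to 18.3% in the 5 other controls, and OsbZIP72 holds 64.3 and 67.5% in IR64 control 1 and 2.

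Shares within a library do not depend on how libraries are scaled to each other. BZIP12 made up 15.8 and 18.3% of the summed level in APO control 1 and 2, against 33.9 and 28% in APO drought 2 and 3. In IR64 it made up 4.2, 2.4 and 17.8% in control and 30.7, 19.3 and 26.3% in drought. The share of BZIP12 was therefore higher in each drought library than in any control over these 10, while it was 29.2% in APO control 3 and 22.7% for the library labelled APO drought 1. OsbZIP72 held 64.3 and 67.5% in IR64 control 1 and 2 and 17.9 to 32.9% in the other 10 libraries. The log2 ratio of BZIP12 to OsbZIP72, chosen after these values were seen, went from -0.90, -0.85 and -0.01 in APO control 1, 2 and 3 to 0.04, 0.70 and 0.65 in APO drought 1, 2 and 3, and in IR64 from -3.95, -4.84 and -0.66 to 0.38, -0.37 and 0.21. Within each cultivar, grouped by label, the drought values lay above the control values in all 12 libraries. The nearest values in APO were -0.01 in control 3 and 0.04 for the library labelled APO drought 1, the 2 libraries left out of the tests. In IR64 they were -0.66 in control 3 and -0.37 in drought 2. How many other pairs of genes separate in this way was not counted, so nothing is drawn from the separation.

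The genes that act before and after the bZIP factors were read from lists of the pathway, whose counts stand against 6.8% of all loci that rose and 7.6% that fell in APO, and 1.12 and 0.307% in IR64. Of 10 clade A protein phosphatase 2C genes, the brakes of the pathway, 6 rose and 0 fell in APO and 5 rose and 0 fell in IR64 (limma, 10 libraries), with median log2 differences of 2.56 and 1.9. OsPP2C51 rose by 5.75 ± 0.81 in APO and by 4.47 ± 0.66 in IR64. PP2C1 (Os09g0325700) rose by 4.13 ± 0.42 and 1.95 ± 0.34, OsPP2C49 by 3.74 ± 0.71 and 3.02 ± 0.58, and OsPP2C30 by 3.16 ± 0.55 and 2.34 ± 0.45. With all 12 libraries 2 of the 10 rose in APO and 0 in IR64.

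Of the 10 SnRK2 kinase genes, 2 rose and 1 fell in APO and 2 rose and 0 fell in IR64, with medians of -0.40 and 1.04. SAPK4 rose in both, by 2.64 ± 0.39 in APO and 2.20 ± 0.32 in IR64. SAPK1 rose by 3.71 ± 0.57 in APO and SAPK5 fell there by 1.89 ± 0.56 (its log2 difference), and SAPK6 rose by 2.58 ± 0.47 in IR64. With all 12 libraries SAPK4 rose and SAPK7 fell in APO, and none of the 10 passed in IR64.

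Of 14 genes of abscisic acid synthesis and breakdown 12 were tested. In APO 3 rose, OSNCED3 (Os07g0154100; 5.28 ± 0.89) and OsNCED2 (Os12g0617400; 3.91 ± 0.73), which belong to the dioxygenase family of the committed step of synthesis, and the hydroxylase gene OsABA8OX2 (3.01 ± 0.69), while OsNCED1 (Os02g0704000) fell by 5.74 ± 0.81. In IR64 1 rose, the locus Os03g0645900, which the tables also name OsNCED1 (2.37 ± 0.43), and OsNCED1 (Os02g0704000) fell by 3.85 ± 0.66. The list medians were -0.21 in APO and 0.47 in IR64. With all 12 libraries 0 rose and 1 fell in APO, and 0 passed in IR64. Both receptor genes that the tables name (OsPYL7 and OsPYL12) were too low to be tested.

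The genes with promoters known to answer to abscisic acid moved furthest. Of 6 listed, 5 were tested and all 5 rose in both cultivars, with medians of 9.32 in APO and 5.3 in IR64. Rab16A went from 30.01 and 25.4 nTPM in APO control 1 and 2 to 44915 and 22006 in APO drought 2 and 3. APO control 3 held 120, and the library labelled APO drought 1 held 2639. In IR64 Rab16A went from 215, 16.7 and 10.6 in control to 3049, 3273 and 5654 in drought. RAB16B rose by 9.55 ± 0.88 in APO and 5.76 ± 0.72 in IR64, and OsLEA3-1 by 9.25 ± 0.92 and 5.30 ± 0.75 (log2). The loci Os11g0453900 and Os11g0454000, both named RAB21, rose by 9.32 ± 0.71 and 9.12 ± 0.69 in APO and by 4.34 ± 0.58 and 4.39 ± 0.56 in IR64; reads shared between these related genes could move between them. All 5 rose with 12 libraries in APO, and 0 passed in IR64. VP1 (Os01g0911700, Vp1* in the tables) ranged from 0 to 6.04 and was not tested. Each gene of these 4 lists named as having risen or fallen kept its direction over the deposited TPM and with median-of-ratios scaling, while many calls did not hold. With median-of-ratios scaling 0 phosphatase, kinase and synthesis genes rose in IR64 and 4 genes with responsive promoters did, and in APO 6, 3, 4 and 5 rose. Over the deposited TPM 1 phosphatase gene rose in each cultivar, 0 kinase genes rose in either, 2 synthesis genes rose in APO and 0 in IR64, and the 5 genes with responsive promoters rose in both.

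**Figure D4:**
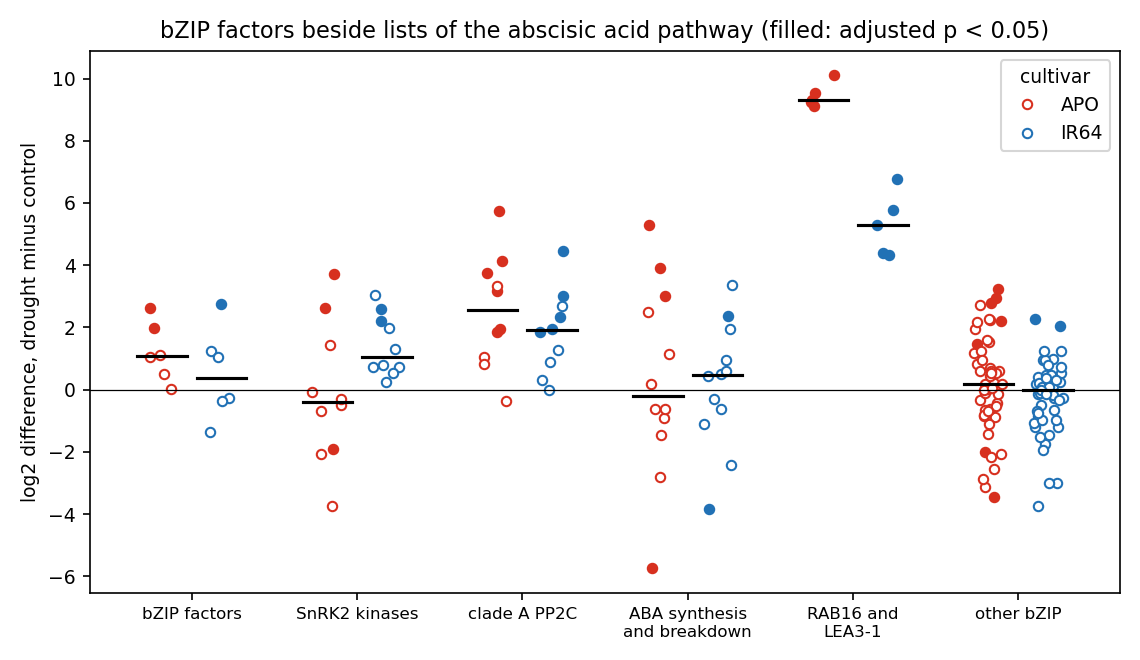
Log2 difference between drought and control of each tested gene in 6 lists, in APO (red) and IR64 (blue), from the fit of 10 libraries; black bars are list medians and filled points passed at an adjusted p under 0.05. The RAB16 and LEA3-1 genes lie highest in both cultivars, with medians of 9.32 and 5.3, and the 6 abscisic acid responsive bZIP genes tested lie between -1.36 and 2.76.

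Among 68 other bZIP genes named by number in the tables, 49 were tested. In APO 5 of them rose and 2 fell, with a median of 0.19, and in IR64 2 rose and 0 fell, with a median of -0.01. That is 10.2% up and 4.08% down in APO, near the 6.8 and 7.6% of all loci, and 4.08% up in IR64, against 1.12%. The 2 that rose in IR64, OsbZIP45 and OsbZIP67, named after their values were seen, also rose in APO (2.22 ± 0.36 and 2.78 ± 0.59, against 2.06 ± 0.30 and 2.27 ± 0.48 in IR64). With all 12 libraries 0 rose and 2 fell in APO, and 0 passed in IR64.

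In the genome of the deposited tables, 4 of the 7 genes had a gene of these lists within 200 kb. The share of all loci with such a neighbour was not counted, so nothing is drawn from this number. TRAB1 lay 48 kb from OsABA8OX2 (chromosome 8, 23288613 to 23294162), with 2 loci between, and OsbZIP72 lay 58 kb from OsABA8OX3 (chromosome 9, 17252034 to 17255420), with 4 loci between. Both neighbours encode enzymes of the family that breaks down abscisic acid by hydroxylation. BZIP12 lay 150.1 kb from the kinase gene SAPK4, with 24 loci between, and OsbZIP62 lay 66.4 kb from OsbZIP63, with 17 between.

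OsABA8OX3 was high in the same controls as OsbZIP72, at 27.3 and 32.6 nTPM in IR64 control 1 and 2 against 3.33 in IR64 control 3. It was at 2.57 and 2.66 in APO control 1 and 2, listed at 0 and at 4.61 in APO drought 2 and 3, and at 6.45, 7.07 and 6.0 in IR64 drought 1, 2 and 3, and did not pass in either cultivar. APO control 3 held 19.25, and OsABA8OX3 was listed at 0 for the library labelled APO drought 1. The share of all loci high in IR64 control 1 and 2 but not in control 3 was not counted, so nothing is drawn from the shared pattern. Leaving out IR64 control 3 raised the loci that passed in IR64 from 1.42 to 17.1%. OsABA8OX2, 48 kb from TRAB1, was at 1.5 and 4.54 in APO control 1 and 2. It held 25.8 and 32.3 in APO drought 2 and 3, and passed in APO over 10 libraries as given above. APO control 3 held 31.4 and the library labelled APO drought 1 held 18.9, so the APO groups overlapped over 12 libraries. The APO difference of OsABA8OX2 was then 1.77 ± 0.85 (adjusted p = 0.273, limma). In IR64 it was at 18.4, 21.1 and 5.78 in control and 16.6, 28.7 and 38.4 in drought, which overlapped. SAPK4, 150.1 kb from BZIP12 with 24 loci between, was at 25.4 and 25.3 in APO control 1 and 2. It held 149 and 178 in APO drought 2 and 3, with 48.3 in APO control 3 and 294 for the library labelled APO drought 1.

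**Figure D5:**
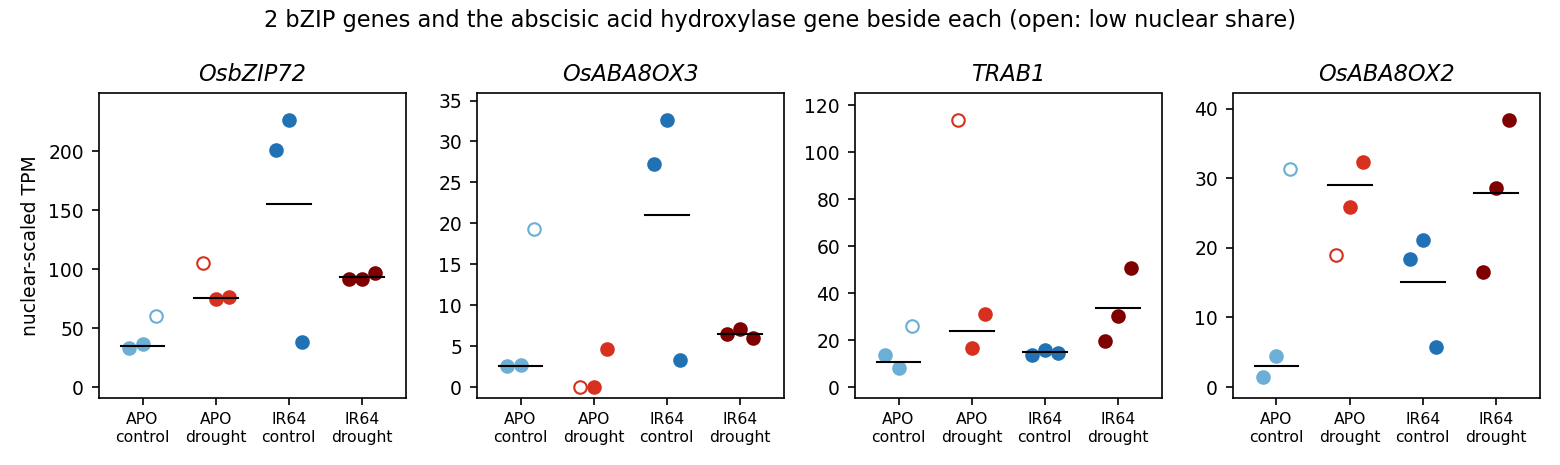
Nuclear-scaled TPM (nTPM, linear axis) of OsbZIP72 and TRAB1 and of the abscisic acid hydroxylase gene nearest to each, in 12 libraries by group. Symbols and lines are as in the plot of the 6 bZIP genes. Both OsbZIP72 and OsABA8OX3 stand high in 2 of the 3 IR64 controls, a pattern whose share among all loci was not counted.

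Genes whose pattern was most like that of a member were found among 7816 tested loci with a symbol, by the root mean square difference of their log2 levels over the 10 libraries, each centred on its own mean. Nearest to BZIP23 was OsNIN4, at 0.211 log2 units, then Oshox6 (0.259) and OsGAD1 (0.321), where BZIP23 itself varied by 0.839 about its mean. The 3 nearest to BZIP12, which varied by 1.42, were OsGL1-2 (0.375), Gns13 (0.388) and the phosphatase gene OsPP2C30 (0.404), which stood at 79.2 and 71.9 nTPM in APO control 1 and 2 and at 614 and 758 in APO drought 2 and 3. Nearest to OsbZIP72 were OsSWEET1b (0.267), OsPP2C10 (0.27) and OsCIPK33 (0.295). For TRAB1 they were AP2/EREBP#022 (0.283), OsRab8B1 (0.286) and OsOSCA1.2 (0.357), against a spread of 0.686. For BZIP46 (0.833) they were THIS1 (0.243), OsTBL36 (0.248) and OsMC5 (0.297), and for OsbZIP62 (0.725) they were OsbHLH077 (0.238), OsNucAP2 (0.351) and OsVTE1 (0.367). All genes compared share the libraries, their depth and their scaling.

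Between cultivars no member passed, in control or in drought. The largest difference in control was that of OsbZIP72, at -1.78 ± 0.63 log2 units in APO against IR64 (interval -3.16 to -0.39; adjusted p = 0.406, limma), and without IR64 control 3 it passed at -2.59 (adjusted p = 0.000414), as did 12.6% of all loci. Of all loci 0.605% passed in control and 12.3% in drought. In drought the differences of the 6 genes ran from -0.43 (TRAB1) to 1.11 (OsbZIP62), and the lowest adjusted p was 0.293. For the difference in drought response 0 of the 6 passed, with 5.19% of loci passing. All of these comparisons share libraries with the drought comparisons above and are not independent of them.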

How the data were processed

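Polysome-bound mRNA was measured in 12 leaf libraries, grouped by their labels. StringTie 1.3.4, HISAT2 2.1.0 and DESeq2 2.11.38 are listed in the submitters' processing notes without their roles. Per the file headers, the authors deposited for each gene a coverage signal (mean reads per base), an FPKM value and a TPM value that sums to 1000000 per library, counting rRNA and organelle genes. The genome build and annotation are not given in the sources used here.

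TPM was rescaled to 1000000 over 37849 nuclear loci of the 38978 genes. Libraries with under 10% of TPM on nuclear loci were left out, and loci with a mean of at least 1 over the other 10 were tested (22812). The model, fitted in R 4.3.3 with limma 3.58.1, took log2(nuclear-scaled TPM + 1) with a trend of variance on level, 1 mean per group, two-sided, Benjamini-Hochberg adjusted over all loci and called at 0.05. With a pseudocount of 1 a fold change understates that of low genes. SE and intervals (95%) come from a spread pooled over the groups and drawn towards the trend over genes. They can therefore be smaller or larger than the libraries compared would give. FPKM and coverage entered only as a guide to depth. The fit was checked on simulated data, with independent normal noise of equal spread in every library of a locus. Such data hold no split group and no differences in depth, so the check cannot show how the fit handles those. 

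The 7 members, the lists, the scaling and the 10% limit were chosen with earlier results of these data known, so no list, rule or test was independent of them. Named were all members, at most 4 called genes per list and comparison, the RAB16 genes, and the 3 genes nearest to a member in pattern. List members came from gene identifiers and symbols of the tables. Alternatives were 2 other filters, a pseudocount of 0.1, deposited TPM, median-of-ratios scaling, all 12 or 11 libraries, library weights, a fit of only the groups compared, a replicate block and leaving out each library. Added after the data were seen were deposited TPM with 12 libraries, and IR64 control 3 as its group's lone library. Related genes may share reads, and the counting of shared reads is not given in the sources used here.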

Additional observations from a re-analysis of the deposited data

Results flagged for a closer look

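No member met a criterion for a closer look: the groups of 3 libraries are too small for the search for an outlying library, and no member passed the test of a cultivar difference in drought response over 10 libraries. Of the pathway genes named, 5 had a drought response that differed between cultivars by the test of that difference (limma, APO minus IR64, log2 units). These were the dehydrin loci RAB21 (Os11g0453900), at 4.97, and RAB21 (Os11g0454000), at 4.74, OsNCED2 (Os12g0617400) at 4.2, SAPK1 at 2.98 and PP2C1 (Os09g0325700) at 2.18. In the fit of all 12 libraries 0 of 26192 loci passed that test, so none of these 5 did (limma; 2789 loci had an unadjusted p under 0.05).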

How the results depend on the processing

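Counts of members that passed moved in both directions under the 22 alternatives. The number of members that passed in APO (2) became 0 with deposited TPM, over 10 or all 12 libraries, and 1 with nTPM of all 12 libraries; it ran from 1 (without APO control 1 or APO drought 2) to 3 (without IR64 control 3) when 1 library was left out. In IR64 (1) it became 2 with a filter at a mean of 5, 4 with library weights, and 0 with deposited TPM (10 or 12 libraries), all 12 libraries, only the groups compared, or IR64 control 3 as its group's lone library, and ran from 0 (without IR64 drought 3) to 3 (without IR64 control 3). The cultivar difference in response (0) went to 1 with library weights and from 0 to 1 on leaving out a library, and the control difference (0) to 2 and from 0 to 2, in each case the highest without IR64 control 3. Over all loci IR64 calls went from 1.42% to 28.3% with library weights and 17.1% without IR64 control 3, and control calls from 0.605% to 31 and 12.6%, so the gains were not limited to the members. Under drought the count was 0 throughout. At an unadjusted p under 0.05, 5701, 2399 and 6975 of all loci passed in these 3 comparisons (limma). BZIP23 in APO kept its direction in all 22 alternatives and passed in 20, and BZIP12 kept it in both cultivars and passed in 17 (APO) and 16 (IR64).

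Values that turned were those of genes that had not passed in that comparison. A lone library was assumed to vary like the other groups. With deposited TPM, IR64 drought gave -0.31 for BZIP23 and -0.44 for TRAB1 (10 or 12 libraries), both above the all-loci median of -0.93. In APO BZIP46 was at -0.32 (deposited), -1.06 (all 12), -0.17 (11 libraries) and -0.38 (deposited, 12), and from -0.08 to 0.14 on leaving out a library; OsbZIP62 was at -0.86 (all 12), -0.19 (11) and -0.18 (deposited, 12). In IR64 BZIP46 was at 0.69 with weights and from -0.84 to 0.61 without 1 library, and OsbZIP72 at 1.26 with IR64 control 3 alone and from -1.18 to 0.08. The cultivar difference in response was -0.79 (all 12) and -0.66 (weights) for BZIP46 (from -0.58 to 0.87 without 1 library), -0.16 for OsbZIP72 with IR64 control 3 alone, -0.39 for TRAB1 with 11 libraries (from -0.41 to 0.45), and 0.7 (deposited), 0.67 (median of ratios) and 0.63 (IR64 control 3 alone) for BZIP12 (from -0.54 to 0.21). In control BZIP46 was at -0.29 (deposited, 12) and -0.0 (IR64 control 3 alone), and BZIP12 at -0.06 (deposited), -0.53 (deposited, 12) and -0.34 (IR64 control 3 alone). Under drought BZIP23 was at 0.36 (deposited) and 0.4 (median of ratios), from -0.27 to 0.24 without 1 library; OsbZIP72 at 0.07 and 0.11 under the same scalings; TRAB1 at 0.03 (deposited) and 0.32 (all 12); and BZIP12 at -0.72 (deposited, 12). The cause was not tested.

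The labels number the replicates alike in each group. Deviations of same-numbered libraries from their group means had correlations from -0.17 to 0.15. In groups of 2 or 3 libraries such deviations are tied to each other, so a shared batch or pairing could not be judged from them. With a replicate block 2, 1, 0, 0 and 0 members passed in the 5 comparisons, as without it; TRAB1 turned to -0.28 in the cultivar difference and BZIP23 to 0.01 under drought, neither passing. BZIP46 and OsbZIP62 were listed at 0 in the shallow IR64 drought 3; OsABI5-1 was listed at 0 in the deepest libraries as well. Whether depth set these values was not tested.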
